A study of Rattus norvegicus with 36 samples.

Results

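Ankrd1, Ankrd2, Csrp3, Mybph, Xirp1, Fhl1 and Nrap code for proteins of the sarcomere and its attachment sites that are known to respond to stretch and load in muscle. These 7 genes, of 14217 genes with 1 symbol on the array, were chosen by name with earlier results of the same arrays in view. Each was read from its brightest probe set, by the mean of log2 signal on the 36 arrays, a choice that did not look at the groups. The rise of Ankrd1 on day 3 was among the results already known, and the study itself picked Mybph out on these arrays. Their changes are therefore described here and are not independent evidence, and the adjusted p-values of all 7 genes carry the same reservation.

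Gene expression was measured in the left soleus muscle of female Sprague Dawley rats, adult and aged 16 weeks when the study began, with 6 groups of 6 rats and 1 array per rat. The soleus is a postural muscle of the calf made mainly of slow fibres. The control group (CTR) was age-matched and uninjured, and the groups SCI3d, SCI8d and SCI14d had a moderate contusion at spinal level T8 and were killed 3, 8 and 14 days later, without training. The group SCI8d + TM had the same injury and 3 sessions of treadmill stepping before tissue collection on day 8. The group SCI14d + TM had the injury and 5 days of stepping with 2 sessions per day. Training began on day 7 in sessions of 20 min, with the trainer holding part of the body weight where needed, and trained muscles were taken 8 h after the last session. The injured rats also had a laminectomy, analgesia, individual housing and a dough diet. None of these is stated for CTR, so their part cannot be told apart from that of the contusion. The muscles are bulk tissue, in which fewer cells of a type and less RNA per cell cannot be told apart.

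Ankrd1 and Ankrd2 are ankyrin repeat proteins that bind titin, the giant spring protein of the sarcomere, in the I-band, and both can also enter the nucleus. Csrp3, also called muscle LIM protein, and Fhl1 are LIM domain proteins that sit at the Z-disc and on titin, Mybph is a thick filament protein related to the myosin binding proteins C, and Xirp1 and Nrap bind actin where the filaments are anchored, at adherens and myotendinous junctions and in growing myofibrils. In skeletal muscle Ankrd1 is known for its induction by stretch, denervation and injury, and Ankrd2 for its abundance in slow fibres.

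RefSeq windows of 250 bases before the start site (build GRCr8) were at hand for 3 of the 7 genes. The first window listed for each is shown because these 3 genes took 3 different courses after injury. Xirp1 was higher early, Ankrd2 was lower late, and Fhl1 on its brightest probe set was near the control level. Capitals mark matches, on either strand, to 5 muscle promoter motifs: the E-box (CANNTG) bound by myogenic regulatory factors, the M-CAT element (CATTCC) bound by TEAD factors, the TATA box (TATAAA), the MEF2 site and the CArG box bound by SRF. The windows lie at chr1:250796169-250796418 on the plus strand for Ankrd2, at chr8:128635012-128635261 on the minus strand for Xirp1 and at chrX:139638246-139638495 on the plus strand for Fhl1.
Ankrd2: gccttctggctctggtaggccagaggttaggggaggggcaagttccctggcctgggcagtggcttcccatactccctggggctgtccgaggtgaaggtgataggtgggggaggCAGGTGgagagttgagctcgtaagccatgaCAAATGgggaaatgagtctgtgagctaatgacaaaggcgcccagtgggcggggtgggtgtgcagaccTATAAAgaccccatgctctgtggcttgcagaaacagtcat
Xirp1: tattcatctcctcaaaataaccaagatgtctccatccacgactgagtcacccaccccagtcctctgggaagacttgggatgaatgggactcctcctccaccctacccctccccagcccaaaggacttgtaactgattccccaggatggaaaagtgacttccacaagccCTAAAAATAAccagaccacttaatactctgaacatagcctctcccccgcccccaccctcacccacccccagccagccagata
Fhl1: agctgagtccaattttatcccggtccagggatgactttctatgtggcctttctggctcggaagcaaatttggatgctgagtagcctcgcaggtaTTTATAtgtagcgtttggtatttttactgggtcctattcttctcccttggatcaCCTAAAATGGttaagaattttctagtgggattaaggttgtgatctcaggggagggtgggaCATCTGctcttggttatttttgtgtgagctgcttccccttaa

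The Ankrd2 window held 2 E-boxes, starting at positions -137 and -107 from the start site, and a TATA box at -40. The Xirp1 window held a MEF2 site at -82, and 2 of the 3 windows listed for this gene held 1. The Fhl1 window held a CArG box at -102, an E-box at -42 and, on the other strand, a TATA box at -156, and its other listed window held 2 E-boxes alone. No match overlapped another, and no window held an M-CAT element. Among 33469 windows of the same length, 65.5% held an E-box, 12.9% a TATA box, 12.1% an M-CAT element, 1.68% a MEF2 site and 1.5% a CArG box. These matches describe the letters only, and the arrays did not measure binding.

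The values are MAS 5.0 signals, a linear intensity per probe set that the authors scaled to the same trimmed mean on every array, and levels of different genes are not compared because probe sets differ in brightness at equal RNA. The median signal of an array was between 167.2 and 235.6, with the lowest in SCI3d replicate 3. The ratio of the 3' to the 5' GAPDH control probe sets, a sign of RNA quality, was 1.02 to 1.61 and was highest on 3 arrays, CTR replicate 3 (1.61), SCI14d replicate 4 (1.35) and SCI14d + TM replicate 1 (1.33). All 7 genes were among the 936 brightest of 31042 probe sets. The muscle fibre markers Acta1, Ckm, Mb, Tnni1 and Myh7 were abundant in every group. The remaining markers of that list, Tnni2 and Myh4, are fast fibre genes and were not. In CTR Tnni2 was at 2176 to 42870 and Myh4 at 37 to 7924. Myh4 was the dimmest in every group, with means from 406 in SCI14d + TM to 3890 in SCI14d. A difference was called at an adjusted p under 0.05 in limma across all 31042 probe sets.

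After injury, 3 of the 7 genes rose early. Mybph, Ankrd1 and Xirp1 were called higher in SCI3d and again in SCI8d than in CTR, by 13.4-fold, 11.4-fold and 3.01-fold on day 3. By day 14 Mybph alone was still called higher and Ankrd2 was called lower, 3.69-fold. Csrp3 was 1.69-fold higher on day 3 without passing the test, and Fhl1 and Nrap differed from CTR by -0.30 to 0.33 on the log2 scale without passing it. Between trained and untrained rats none of the 7 genes passed the test on either day. There 0% of all probe sets passed it on day 8 and 0.00322% on day 14. Against CTR, 16.5%, 6.29% and 3.19% of all probe sets were called on days 3, 8 and 14.

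**Figure D1:**
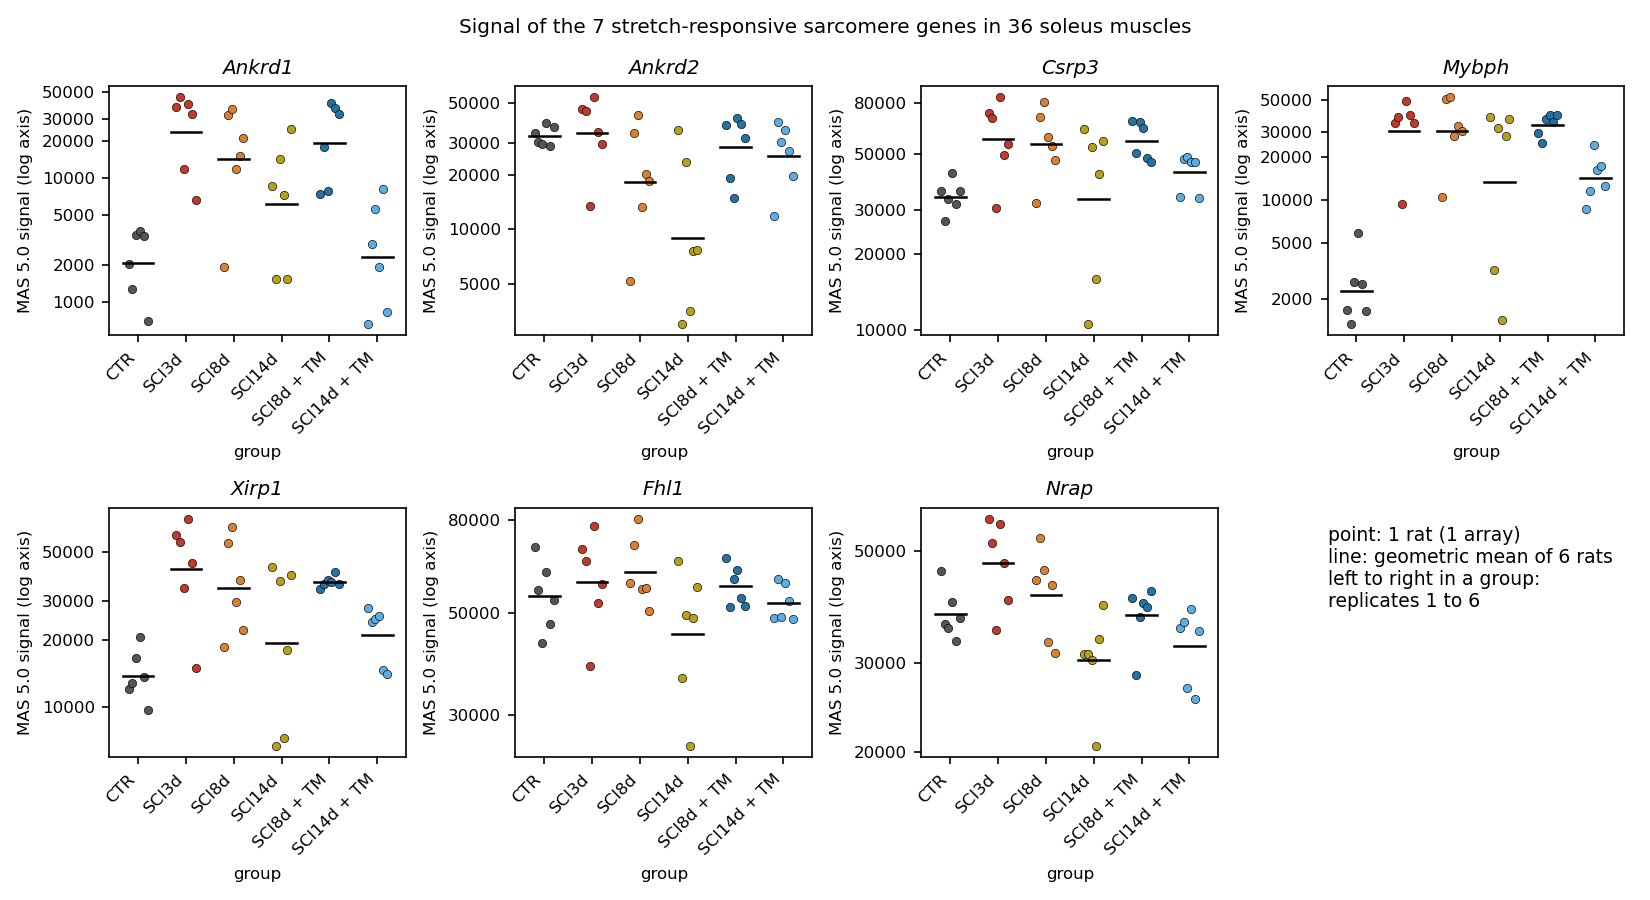
MAS 5.0 signal (log axis) of each gene by group, with 1 point per rat and a line at the geometric mean of 6 rats. Mybph in SCI3d and SCI8d lies above every CTR point, Ankrd2 falls to 2977 in SCI14d, and the log2 SD is largest in SCI14d for all 7 genes.

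Among the titin-binding ankyrin repeat proteins, the Ankrd1 signal was 704 to 3765 in CTR, with a median of 2707. In SCI3d it was 6620 to 45208 with a median of 35577, and in SCI8d 1915 to 36664 with a median of 18213. In SCI14d it was 1534 to 25205 with a median of 8031. Every SCI3d rat was above every CTR rat, whereas the lowest SCI8d and SCI14d rats were within the CTR range. The mean log2 difference from CTR was 3.52 (95% CI 2.07 to 4.97) on day 3. On day 8 it was 2.79 (SE 0.72, adjusted p = 0.0156 in limma), 6.94-fold. That call was lost in the methods' t-test after adjustment (adjusted p = 0.0774). On day 14 the difference was 1.57 (SE 0.72, adjusted p = 0.234), which did not pass the test in limma.

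In trained muscle, Ankrd1 was 7488 to 40396 in SCI8d + TM with a median of 25443, above every CTR rat, and 659 to 8129 in SCI14d + TM with a median of 2418, which overlapped CTR. The difference from CTR was 3.22 on the log2 scale in SCI8d + TM (SE 0.72, adjusted p = 0.0029 in limma) and 0.14 in SCI14d + TM (adjusted p = 0.963). Trained minus untrained, it was 0.43 on day 8 (95% CI -1.02 to 1.88, adjusted p = 1) and -1.43 on day 14 (95% CI -2.88 to 0.02, adjusted p = 0.843). The effect of training differed by -1.86 between day 14 and day 8 (SE 1.01, adjusted p = 0.918), so a difference between the days was not detectable with 6 rats a group.

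Ankrd2, its relative in slow fibres, was lower late after injury. Its signal was 29121 to 38962 in CTR with a median of 32438, and 13513 to 54014 in SCI3d with a median of 40015. In SCI8d it was 5154 to 43172 with a median of 19527, and in SCI14d 2977 to 35652 with a median of 7652. The CTR rats were tightly grouped, with a SD of 0.18 on the log2 scale against 1.44 in SCI14d, where 4 rats lay between 2977 and 7710 and 2 rats at 23706 and 35652. The log2 difference from CTR was 0.05 (SE 0.47, adjusted p = 0.966) in SCI3d, -0.85 (adjusted p = 0.308) in SCI8d and -1.89 (SE 0.47, adjusted p = 0.0222 in limma) in SCI14d. The day 14 call was lost without CTR replicate 1 (adjusted p = 0.051), SCI14d replicate 4 (0.0697) or SCI14d replicate 6 (0.0519). It was also lost without the 3 arrays of high GAPDH ratio, where the difference was -1.65 (adjusted p = 0.0696). With the compared groups alone the adjusted p was 0.06 in limma, and in the methods' t-test after adjustment it was 0.149.

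Trained rats had Ankrd2 signals of 14883 to 41659 with a median of 35125 in SCI8d + TM and of 11785 to 39448 with a median of 28875 in SCI14d + TM, and both ranges overlapped CTR and the untrained group of the same day. On day 14 the trained mean was 2.84-fold above the untrained mean, a log2 difference of 1.51 (SE 0.47, 95% CI 0.55 to 2.46). This was the only one of the 7 genes with an unadjusted p under 0.05 for training on either day (0.0029 in limma, 0.0476 in a two-sided exact permutation test of 6 against 6), and the adjusted p was 0.56. On day 8 the difference was 0.65 (adjusted p = 1), and the difference between the days was 0.86 (SE 0.67, adjusted p = 0.945). Against CTR, SCI14d + TM differed by -0.38 (adjusted p = 0.802).

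Of the LIM proteins, Csrp3 was 27211 to 42047 in CTR with a median of 34454. It was 30514 to 84271 in SCI3d with a median of 62418, 31891 to 80550 in SCI8d with a median of 56320, and 10547 to 63217 in SCI14d with a median of 47570. In each of these groups at least 1 rat fell within the CTR range, and in SCI14d 2 rats were below it, at 10547 and 15945. The log2 difference from CTR was 0.76 (SE 0.30, adjusted p = 0.0855) in SCI3d, 0.69 (adjusted p = 0.179) in SCI8d and -0.03 (adjusted p = 0.969) in SCI14d, none of which passed the test in limma. Without SCI3d replicate 3, the lowest rat, the day 3 difference was 0.94 and was called (adjusted p = 0.0299), and it was also called without SCI14d replicate 2 (adjusted p = 0.0323).

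In SCI8d + TM every rat, at 46410 to 67606, had more Csrp3 signal than every CTR rat. The log2 difference was 0.74 (95% CI 0.12 to 1.35, two-sided exact permutation p = 0.00216, the smallest possible), but the adjusted p over all probe sets was 0.106 in limma. The difference was called in 4 of 49 settings with adjustment. These were the compared groups alone (adjusted p = 0.0022), the methods' t-test after adjustment (0.00806) and array weights (0.0328). The last was the fit without SCI14d replicate 2 (0.0467), an array of neither compared group. In SCI14d + TM the signal was 33606 to 48888, with 4 rats above the CTR range and 2 within it, and the difference of 0.32 did not pass (adjusted p = 0.722). The effect of training was 0.05 on day 8 (95% CI -0.57 to 0.66) and 0.35 on day 14 (95% CI -0.26 to 0.97).

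On its brightest probe set Fhl1, a LIM protein that binds titin, stayed near its control level. Its signal was 43128 to 69882 in CTR, 38380 to 77620 in SCI3d, 50668 to 80487 in SCI8d and 25648 to 64982 in SCI14d, with medians of 54842, 61448, 57565 and 49206. The trained groups, at 51706 to 65981 and 48483 to 59362, lay within the CTR range, and all groups overlapped. The log2 difference from CTR was 0.10, 0.17 and -0.28 on days 3, 8 and 14 (SE 0.17 each). It was not called (adjusted p = 0.765, 0.632 and 0.424 in limma), and the 95% intervals together ran from -0.63 to 0.52. A far dimmer probe set, described below, was called higher in limma in SCI8d (1.82, adjusted p = 0.0198) and SCI8d + TM (2.01, adjusted p = 0.00579).

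Mybph, the thick filament protein, had the largest log2 difference of the 7 genes on each day. Its signal was 1336 to 5835 in CTR with a median of 2115, and 9307 to 49086 in SCI3d with a median of 36426. It was 10532 to 52427 in SCI8d with a median of 31701, and 1419 to 38405 in SCI14d with a median of 29957. All rats of SCI3d and SCI8d were above all CTR rats, while in SCI14d 4 rats at 28140 to 38405 were far above CTR and 2 rats, at 1419 and 3231, were within its range. The log2 difference from CTR was 3.74 (SE 0.57, adjusted p = 1.4e-05) in SCI3d, 3.73 (adjusted p = 0.000215) in SCI8d and 2.55 (adjusted p = 0.0106 in limma) in SCI14d. With the CTR and SCI14d arrays alone in the fit, the day 14 difference was not called (adjusted p = 0.0876). Nor was it called in the methods' t-test after adjustment (adjusted p = 0.194).

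Mybph was not called for training on either day. It was 25207 to 39203 in SCI8d + TM and 8542 to 24421 in SCI14d + TM, with medians of 35925 and 14334, and every trained rat was above every CTR rat. The difference from CTR was 3.88 (adjusted p = 6.5e-05) and 2.64 (SE 0.57, adjusted p = 0.027 in limma) on the log2 scale. The second call was lost without any 1 of 5 arrays, which were CTR replicates 1, 2 and 6 and SCI14d + TM replicates 3 and 5, with adjusted p-values of 0.0714 to 0.115. Against the untrained rats of the same day it differed by 0.15 (95% CI -1 to 1.3) and 0.09 (95% CI -1.06 to 1.24).

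Of the actin-binding proteins, Xirp1, which is known to appear at sites of myofibril damage, was 9714 to 20624 in CTR with a median of 13223. It was 15097 to 70250 in SCI3d with a median of 50030, 18640 to 64750 in SCI8d with a median of 33580, and 6730 to 42596 in SCI14d with a median of 27586. The lowest rat of SCI3d and that of SCI8d fell within the CTR range, and the SCI14d rats were split, with 3 at 37010 to 42596 and 2 below the lowest CTR rat. The log2 difference from CTR was 1.59 (SE 0.38, adjusted p = 0.00299 in limma) in SCI3d, 1.31 (SE 0.38, adjusted p = 0.033) in SCI8d and 0.49 (adjusted p = 0.545) in SCI14d. The day 8 call was lost without any 1 of 7 arrays, CTR replicates 1, 2, 5 and 6 and SCI8d replicates 2, 3 and 5. The differences were then 1.13 to 1.30, with adjusted p-values of 0.0567 to 0.0925. This call was also lost in the methods' t-test after adjustment (adjusted p = 0.0648).

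In SCI8d + TM the Xirp1 signal was 33899 to 40736, above every CTR rat and within a SD of 0.09 on the log2 scale, the narrowest group of any of the 7 genes. Its difference from CTR was 1.4 (SE 0.38, adjusted p = 0.0137 in limma). In SCI14d + TM the signal was 14108 to 27950, and the difference of 0.61 was not called (adjusted p = 0.541). The effect of training was 0.09 on day 8 (95% CI -0.68 to 0.87) and 0.12 on day 14 (95% CI -0.65 to 0.89).

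Nrap, which serves as a scaffold when new myofibrils are built, was 33186 to 45781 in CTR, 34935 to 57993 in SCI3d, 31496 to 53260 in SCI8d and 20622 to 39075 in SCI14d, with medians of 36404, 49694, 43388 and 31341. It was 28435 to 41682 in SCI8d + TM and 25476 to 38428 in SCI14d + TM. In SCI3d 4 rats, at 47330 to 57993, were above the highest CTR rat, but all groups overlapped CTR. The log2 difference from CTR was 0.33 (SE 0.15, adjusted p = 0.139) in SCI3d, 0.13 in SCI8d and -0.30 (adjusted p = 0.298 in limma) in SCI14d, and it was -0.14 and 0.09 between trained and untrained rats.

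**Figure D2:**
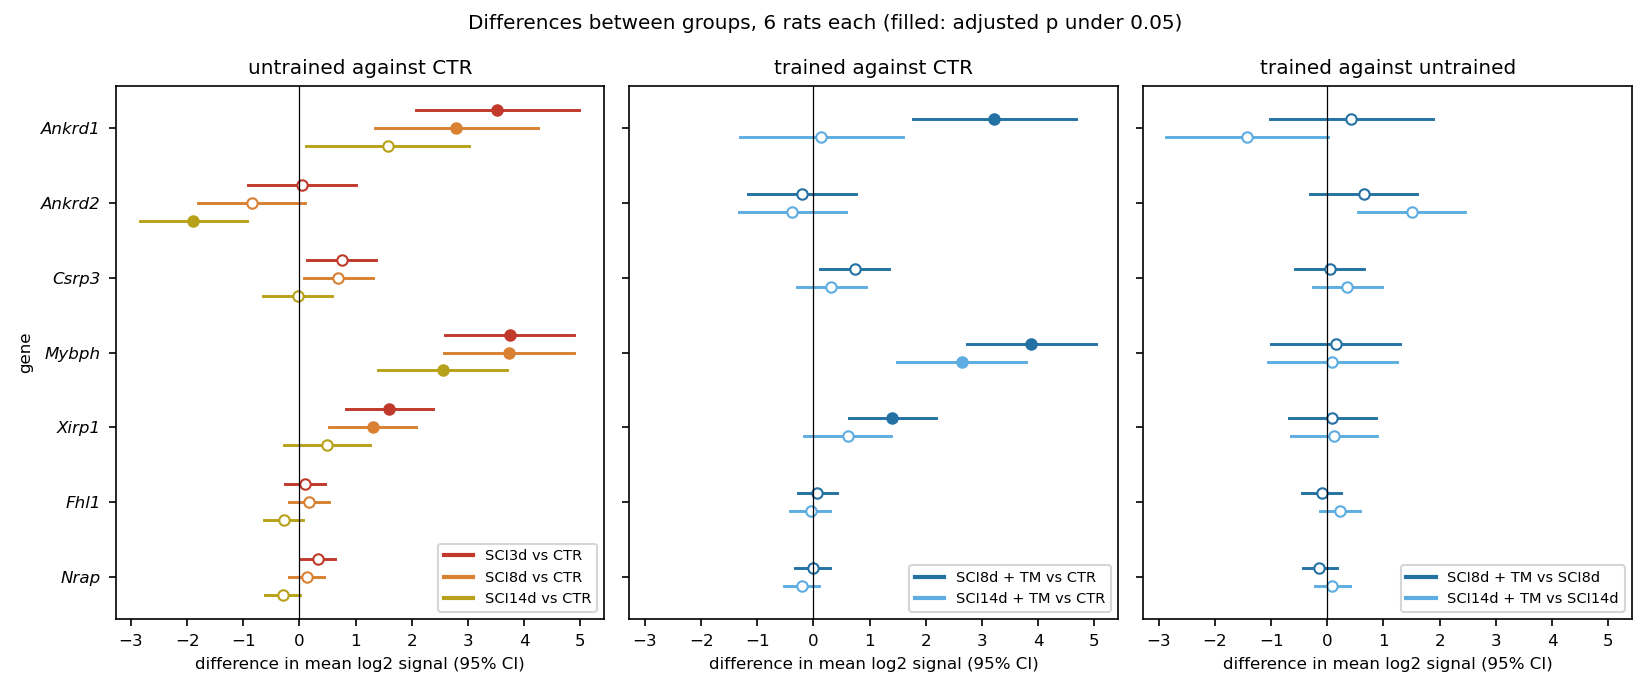
Difference in mean log2 signal with its 95% confidence interval for each gene, in untrained against CTR, trained against CTR and trained against untrained rats (6 per group, filled points at an adjusted p under 0.05). Ankrd1 and Mybph lie at 3.52 and 3.74 on day 3, Ankrd2 at -1.89 on day 14, and no point is filled in the panel of trained against untrained rats.

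Counted over the 7 genes, 3 were called in SCI3d against CTR, all higher, where 16.5% of all probe sets were called, and 7 were higher on average. The same count of 3 higher, again Ankrd1, Mybph and Xirp1, was found in SCI8d, where 6.29% of probe sets were called. In SCI14d 1 gene was called higher and 1 lower, against 3.19% of probe sets. The median log2 difference of the 7 genes was 0.76, 0.69 and -0.03 on days 3, 8 and 14, beside -0.04, 0.04 and 0.08 over all probe sets. Since the 7 genes were picked with such results known, these shares only describe them.

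In SCI8d + TM against CTR 3 genes were called, all higher (12.2% of probe sets). In SCI14d + TM 1 gene was called (0.358% of probe sets). Neither training contrast called any of the 7 genes in limma, and at an unadjusted p under 0.05 there were 0 genes on day 8 and 1 gene, Ankrd2, on day 14. Over all probe sets 0% were called on day 8 (1343 unadjusted) and 0.00322%, a single probe set, on day 14 (1849 unadjusted). For the difference between the training effects, 0 of the 7 genes and 0% of probe sets were called (0 and 1659 unadjusted). The number of arrays limits what could be seen.

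From SCI8d to SCI14d, all 7 genes were lower on average, with a median log2 difference of -0.82 beside 0.05 over all probe sets, and 6 had an unadjusted p under 0.05 in limma, but 0 were called, as were 0% of probe sets (2717 unadjusted). The differences were -1.22 for Ankrd1, -1.18 for Mybph, -1.03 for Ankrd2, -0.82 for Xirp1, -0.73 for Csrp3, -0.45 for Fhl1 and -0.43 for Nrap, with adjusted p-values between 0.417 and 0.641. Other muscle genes were also mostly lower in SCI14d than in SCI8d, again with 0 called. Of the slow fibre genes 0 of 9 were higher on average (median -0.37), of the Z-disc and titin partners 6 of 32 (median -0.37) and of the muscle fibre markers 1 of 7 (median -0.31). From SCI3d to SCI8d, 0 genes were called while 6.79% of probe sets were, and 0 had an unadjusted p under 0.05. The comparisons on days 3, 8 and 14 share the CTR rats.

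Ordered by mean log2 signal, Ankrd1, Xirp1, Csrp3, Ankrd2 and Nrap were highest in SCI3d, Mybph in SCI8d + TM and Fhl1 in SCI8d. SCI14d stood last for Ankrd2, Csrp3, Fhl1 and Nrap, and CTR stood last for Ankrd1, Mybph and Xirp1. Neighbouring groups in these orders mostly lay within the larger of their SDs. The exceptions were Mybph, where SCI8d exceeded SCI14d + TM by 1.09 and SCI14d exceeded CTR by 2.55 on the log2 scale, and Csrp3, where SCI14d + TM exceeded CTR by 0.32.

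Rats of 1 group differed from each other in several of the 7 genes at once. SCI3d replicate 3 was among the 2 lowest rats of its group for all 7 genes, SCI14d replicates 2 and 4 for 6 genes each, and SCI8d replicate 1 was the lowest for 5. At the other end, SCI8d replicate 3 was the highest of its group for 6 genes, and CTR replicate 4, SCI3d replicate 4 and SCI14d replicate 1 for 5 each. In SCI14d replicate 4, Mybph was 1419 and Xirp1 7253, against 38405 and 42596 in replicate 1. The summed signal of the 7 muscle fibre markers was the lowest of its group in SCI3d replicate 3 (248894) and in SCI14d replicate 4 (201850), which also had a GAPDH ratio of 1.35. It was 277264 in SCI14d replicate 2 and 360768 in SCI8d replicate 1, where 3 rats of the same group were lower in each. The part of these values in the low signals was not tested.

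**Figure D3:**
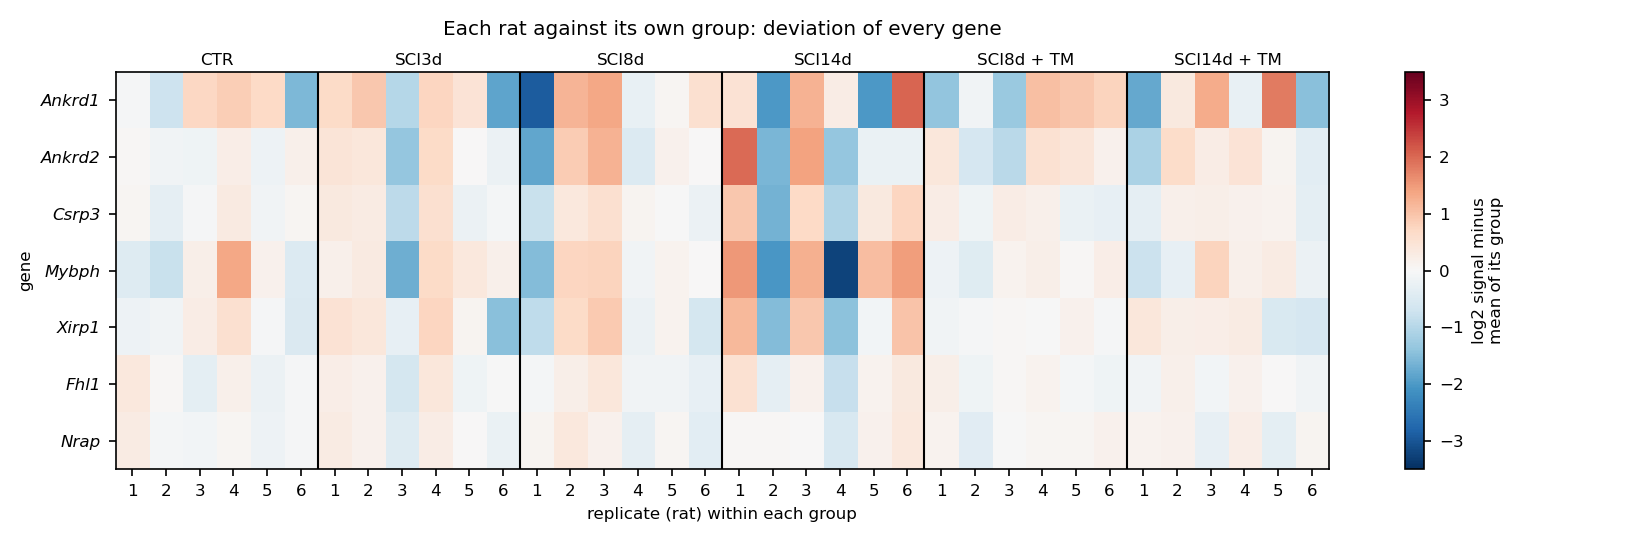
Deviation of each array from the mean of its group (log2, colour scale) for the 7 genes (rows) and 36 rats (columns, replicates 1 to 6 per group). The columns of SCI8d replicate 1 and SCI14d replicates 2 and 4 are blue for most genes, and those of SCI8d replicate 3 and SCI14d replicate 1 are red.

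As a description over 36 arrays that share their groups, scaling and RNA source, the deviations from the group means gave a positive r in all 21 pairs of the 7 genes, with Pearson's coefficients from 0.06 (Ankrd1 and Nrap) to 0.88 (Csrp3 and Mybph), a median of 0.65 and 16 pairs over 0.5. Spearman's rho was 0.16 and 0.79 for the same 2 pairs. The median r of a gene with the other 6 was 0.43 for Nrap to 0.79 for Csrp3, whereas its median r with 10368 other genes was -0.11 to -0.06, and 0.453% to 0.916% of those genes reached r over 0.7. Csrp3 also followed Ankrd2 (0.80), Fhl1 (0.80) and Xirp1 (0.79), and Fhl1 followed Nrap (0.72). Without the 2 arrays farthest from the median of the first gene of a pair, r was 0.12 (Ankrd1 and Nrap) to 0.85 (Csrp3 and Mybph). For Ankrd1 with Ankrd2, Csrp3, Mybph and Xirp1, r was 0.61, 0.51, 0.51 and 0.58 on all arrays. Without those 2 arrays it was 0.47, 0.36, 0.38 and 0.48. With Fhl1 it was 0.25 and then 0.21.

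The SD of log2 signal was lower in SCI8d + TM than in SCI8d and in SCI14d + TM than in SCI14d for 7 of 7 genes on both days, whereas this held for 56.6% and 60.9% of all probe sets. On day 14 it was 2.09 in untrained and 0.53 in trained rats for Mybph, 1.44 and 0.64 for Ankrd2 and 1.08 and 0.26 for Csrp3, and on day 8 it was 0.71 and 0.09 for Xirp1. The 7 genes vary together between rats, so that they count as few independent observations, and the difference in spread was not tested.

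The genes whose log2 signal followed each gene most closely over the 36 arrays, of 10375 genes compared, are also given as a description, without a test. For Xirp1 they were Enah (Pearson's r 0.93), an actin regulator, Hspb1 (0.91), a small heat shock protein, and Tnfrsf12a (0.90), the receptor of TWEAK. For Csrp3 they were Hspb1 (0.90), its relative Hspb7 (0.89) and Flnc (0.88), the filamin of the Z-disc. For Mybph they were Rnf115 (0.91), Mustn1 (0.89) and Pdlim3 (0.88), a Z-disc protein. For Fhl1 they were Tnnc1 (0.93), Actn2 (0.93) and Tnni1 (0.92), which code for slow troponins and alpha-actinin. For Ankrd1 they were Pvr (0.92), Pbdc1 (0.90) and R3hcc1l (0.87), for Ankrd2 Lrrfip1 (0.88), Phf24 (0.87) and Fhl2 (0.85), and for Nrap Cnbp (0.89), Adsl (0.85) and Oaz1 (0.83).

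The array holds a second probe set for Ankrd1 and 2 more for Fhl1. The second Ankrd1 probe set gave log2 differences from CTR of 3.81, 2.97 (adjusted p = 0.0176) and 1.6 (adjusted p = 0.274) on days 3, 8 and 14, close to those above. The second bright Fhl1 probe set was as flat as the first, with 0.02, 0.08 and -0.25. The third, far dimmer Fhl1 probe set behaved otherwise. Its signal was 208 to 1899 in CTR with a median of 1366, 1047 to 5337 in SCI3d, 2366 to 4570 in SCI8d and 322 to 4944 in SCI14d, so that all SCI8d rats were above all CTR rats. Its log2 difference from CTR was 1.24 on day 3 (SE 0.48, adjusted p = 0.0764), 1.82 on day 8 (adjusted p = 0.0198 in limma), 0.24 on day 14 and 2.01 in SCI8d + TM (adjusted p = 0.00579). Which Fhl1 transcripts each probe set reads was not examined.

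**Figure D4:**
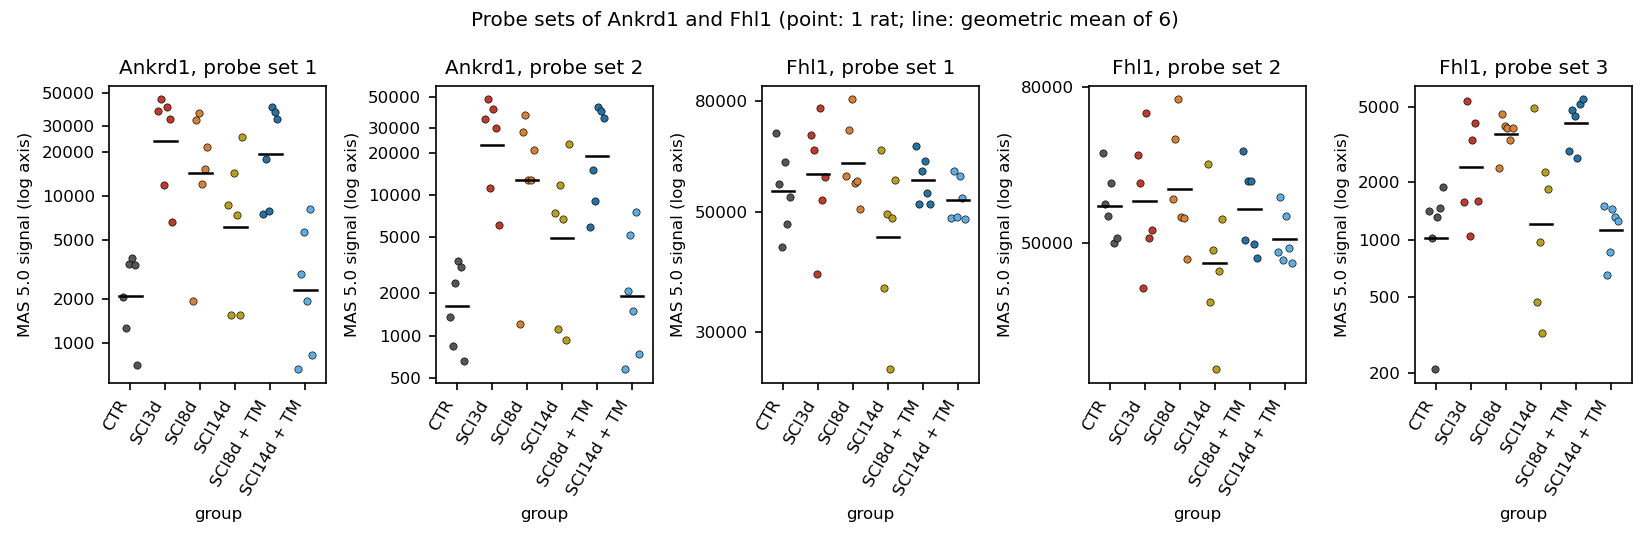
MAS 5.0 signal (log axis) of the 2 Ankrd1 and 3 Fhl1 probe sets by group, with 1 point per rat and a line at the geometric mean of 6, in order of brightness. Both Ankrd1 probe sets rise after injury, and the third Fhl1 probe set rises to 2366 or more in every SCI8d rat and to 2675 or more in every SCI8d + TM rat.

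Close relatives of the 7 genes mostly did not pass the test. Of 10 measured, 0 were called on days 3 and 8 and 1 on day 14, which was Ankrd23, the third titin-binding ankyrin repeat protein, at -0.52 (SE 0.15, adjusted p = 0.0499 in limma). Csrp2, a LIM protein like Csrp3, was called higher in SCI8d + TM than in CTR, at 1.29 (SE 0.38, adjusted p = 0.0219). The fast skeletal isoform Mybpc2 differed from CTR by 2.62 on day 8 and 2.85 on day 14, and its spread was wide (SE 0.90 each, adjusted p = 0.0773 and 0.0736). On day 3, when Ankrd1, Mybph and Xirp1 were higher, Ankrd23 differed by 0.06, Mybpc1 by -0.09, Mybpc2 by 0.72, Mybpc3 by -0.43, Csrp1 by -0.02, Csrp2 by 0.34, Fhl2 by 0.25, Fhl3 by -0.34, Lasp1 by -0.08 and Neb by -0.20. The differences in direction between the 7 genes and these relatives were not tested.

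The Z-disc and titin partners of these genes moved both ways on day 3, when 7 of 32 were called higher and 8 lower, with a median of 0.01. Those with the smallest p were Myoz3, a calcineurin-binding Z-disc protein, at -2.48 (adjusted p = 3.01e-07), Pdlim3 at 1.08 (4.1e-05), the titin-bound ubiquitin ligase Trim63 at 0.95 (0.000269) and the small heat shock protein Hspb8 at 1.18 (0.000334 in limma). On day 8 there were 5 higher and 1 lower, led by Pdlim3 at 1.02, vinculin (Vcl) at 0.70, the fast fibre alpha-actinin Actn3 at 3.86 and Myoz1 at 1.23. On day 14 there were 2 higher, Actn3 at 4.18 and Myoz1 at 1.28, and 1 lower, Pdlim5 at -0.70. In SCI8d + TM against CTR 5 were higher and 2 lower, and in SCI14d + TM 0 were called.

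M-band genes, which include those for the crosslinks of the thick filaments at the centre of the sarcomere, were mostly lower. Of 5 measured, 4 were called lower on day 3, with Lrrc39 at -1.80 (adjusted p = 5.9e-07), Myom2 at -1.53 (6.53e-06), Myom1 at -1.08 (0.000367) and Obsl1 at -0.89 (0.0038 in limma), and 0 higher. On days 8 and 14 3 were lower each, and in SCI8d + TM 3. Those of day 14 were Lrrc39 (-1.23), Myom1 (-0.83) and Trim54 (-0.43). Trim54 differed by 0.07 on day 3 and -0.01 on day 8. In SCI14d + TM 0 of 5 were called, where 0.358% of all probe sets were. The median difference from CTR was -0.29, beside -0.69 in SCI14d. Between trained and untrained rats on day 14, 0 of 5 were called.

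**Figure D5:**
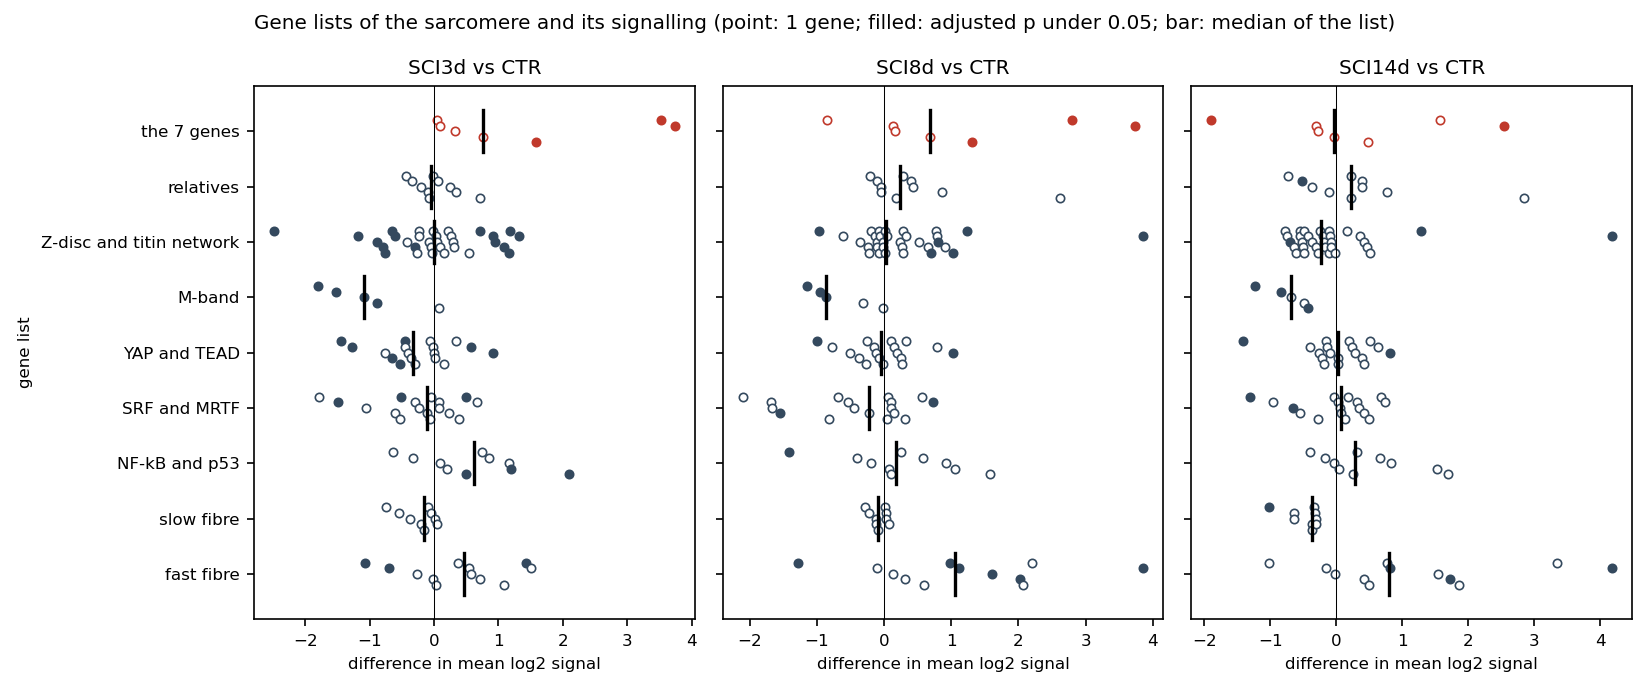
Difference in mean log2 signal from CTR on days 3, 8 and 14 for the 7 genes (red) and for genes of 8 lists, with 1 point per gene (filled at an adjusted p under 0.05) and a bar at the median of the list. The median of the 7 genes is at 0.76 on day 3 and -0.03 on day 14, and that of the M-band genes is at -1.08 and -0.69.

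The signalling systems known to act on such genes were read from lists. Beside the counts of this and the other lists, the share of all probe sets called against CTR was 16.5% on day 3, 6.29% on day 8 and 3.19% on day 14. It was 12.2% in SCI8d + TM and 0.358% in SCI14d + TM. Of 18 genes of the YAP and TEAD system, through which mechanical load acts on transcription, 2 were called higher and 5 lower on day 3, 1 and 1 on day 8, 1 and 1 on day 14, 3 and 1 in SCI8d + TM and 0 in SCI14d + TM. The cofactor Vgll2 was lower on day 3 at -1.44 (adjusted p = 0.000494), on day 8 at -1 (0.0311) and on day 14 at -1.41 (0.0059). The target Ccn2 was lower on day 3 at -1.27 (0.000883). Of the TEAD factors, Tead4 was higher on day 3 at 0.91 (0.00415 in limma) and Tead1 was lower at -0.66 (0.00812). Of 17 genes of the SRF and MRTF system, 1 was higher and 2 lower on day 3, 1 and 1 on day 8, 0 and 2 on day 14, 1 and 1 in SCI8d + TM and 0 in SCI14d + TM. Myocd, a cofactor of SRF, was lower on each of the 3 days, at -1.49, -1.55 and -1.31. Its signal was dim, with a mean of 246 in CTR, 89 in SCI3d and 88 in SCI8d, where array medians were 167.2 to 235.6. Of 10 genes of the NF-kB and p53 systems, 3 were higher on day 3, which were Tnfrsf12a at 2.10 (adjusted p = 0.00432), Nfkb2 at 1.19 and Mdm2 at 0.50, with 1 lower on day 8, Nfkbia at -1.41, and 0 on day 14. In SCI8d + TM 1 was higher and 2 lower, and in SCI14d + TM 0 were called.

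Fibre type genes are given for days 3, 8 and 14 and for both trained groups against CTR. Other cell types are given mainly for day 3, with some of the later counts. Of 12 fast fibre genes, 1 was called higher and 2 lower on day 3, 5 higher and 1 lower on day 8, and 3 higher on day 14. In SCI8d + TM 4 were called higher and 0 lower, and in SCI14d + TM 0 were called. Tnnt3 was called higher on all 3 days, at 1.42, 2.03 and 1.72. The genes called lower were Casq1 (-0.70) and Myh1 (-1.07) on day 3 and Myh1 (-1.28) on day 8. For Myh1 this is opposite to the study, which reports an increase after injury on these arrays without naming its probe set. Myh1 was read here from its brightest probe set, and whether that also reads other myosin genes was not examined. Of 9 slow fibre genes, 0 were called on days 3 and 8 and 1 lower on day 14, Tpm3 at -1.02 (adjusted p = 0.0446 in limma). Neither trained group had a slow fibre gene called against CTR. The summed signal of the fast fibre list was 122767 to 378014 in CTR and 205667 to 356475 in SCI3d, and its ranges overlapped in all groups. The part of fibre type in the course of Mybph and Ankrd2 was not tested.

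Of the markers of other cell types, those of tendon and the myotendinous junction (5 of 6 called, with Scx at -2.05, adjusted p = 9.14e-06) and of adipocytes (3 of 5 called, with Adipoq at -2.80, adjusted p = 0.00222 in limma) were lower on day 3, the day of the highest mean Ankrd1 and Xirp1. The tendon markers summed to 13193 to 70251 in CTR and 14225 to 29269 in SCI3d, and the adipocyte markers to 11362 to 28675 and 5590 to 15880, with Lep, the dimmest, at mean signals of 23 and 11. Of the 7 muscle fibre markers 0 were called on days 3 and 14 and 1 higher on day 8 (Tnni2, 1.6), and their sum was 249538 to 369782 in CTR and 248894 to 397175 in SCI3d. Of 3 erythrocyte markers 2 were higher on days 3 and 8, of 6 macrophage markers 1 was higher and 1 lower on day 3 and 3 were higher in SCI8d + TM, and of 5 fibroblast markers 1 was lower on day 3 and 3 were higher in SCI8d + TM. In SCI8d + TM 4 of 5 adipocyte markers were lower, and of 6 tendon markers 1 was higher and 2 lower. Of 4 markers of regenerating fibres and satellite cells 1 was higher (Myog, 1.42) and 1 lower (Myh3, -1.71) on day 3, and 0 were called on day 8. On day 14, 1 was higher, Myh8 at 3.5 (adjusted p = 0.00602 in limma), a dim marker with a mean signal of 99 in CTR. In SCI8d + TM 2 of these 4 were higher, and in SCI14d + TM 1. On day 3, 1 of 4 smooth muscle, 0 of 3 endothelial and 1 of 2 Schwann cell markers were lower. The part of these cell types in the values of the 7 genes was not tested.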

How the data were processed

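The data were 36 Affymetrix Rat Genome 230 2.0 arrays of rat soleus, grouped by the sample labels, with 6 rats in each of 6 groups. The intensity values, linear signals generated in MAS 5.0 and scaled by array, were deposited by the authors, whose methods kept probe sets with at least 4 present calls and compared groups by a t-test in GeneSpring 11.0. The scaling forces equal array means and so hides a change in total RNA. Of 31099 probe sets, 57 control probe sets were left out. The table of probe sets and genes gives 1 symbol for 20826, several for 436 and none for 9780, and none was named from several.

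No offset was added before log2 was taken. A model of the 6 group means was fitted across all 31042 probe sets with limma 3.58.1 in R 4.3.3 (30 residual degrees of freedom, variance moderated with an intensity trend), and each of 10 comparisons was adjusted by Benjamini-Hochberg over all probe sets. A fold is 2 to the power of the size of the log2 difference. For the 7 genes, a two-sided exact permutation test used all 924 arrangements of 6 against 6, with a smallest p of 0.00216. The procedure was tested on simulated data.

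The 7 genes and the gene lists were chosen with earlier results of these data known. Named genes are the 7, their relatives, up to 4 genes of every other list with the smallest p in a comparison, and the 3 genes of highest Pearson correlation to each of the 7 among genes outside the dimmest 40% (mean log2 signal over 6.73). Tead1 is named beside Tead4 as the other TEAD factor called on day 3. Figures were drawn with matplotlib. Alternatives are given in the closing section. The number of arrays limits the precision.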

Additional observations from a re-analysis of the deposited data

Results flagged for a closer look

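Within the 42 groups of 6 rats (7 genes in 6 groups), 2 held an array whose gap to the nearest other array took more of the whole range of log2 signal than Dixon's 95% critical value for 6 samples, a limit that about 1 in 20 groups would pass by chance. In SCI3d, Mybph was lowest in replicate 3, at 9307, with the next rat at 34441, and the gap was 0.787 of the range. In SCI8d + TM, Nrap was lowest in replicate 2, at 28435, with the next rat at 37087, and the gap was 0.695 of the range.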

How the results depend on the processing

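Over 70 differences, 10 for each of the 7 genes, 3759 values were computed under alternatives. Of these, 3707 kept their side of the threshold, 23 lost a call and 29 gained one. The gains include those at an unadjusted p under 0.05 in the methods' t-test and the exact permutation test, a laxer threshold than the adjusted p. No value that passed the threshold changed direction, and among the 3707 there were 94 whose sign differed with neither value past it. The alternatives were quantile normalization, median centring, scaling to GAPDH, an offset of 32, leaving out the dimmest 40%, no intensity trend, array weights, the compared groups alone, a replicate block, the methods' t-test, the exact permutation test, other probe sets, their mean and each array left out. After seeing the data, 2 more were added, leaving out the 3 arrays of high GAPDH ratio and that ratio as a covariate.

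The count of called genes in SCI14d against CTR was 2, and 0 with the compared groups alone, 0 in the methods' t-test after adjustment and 1 without the arrays of high GAPDH ratio. In SCI8d against CTR it was 3, and 1 in the adjusted t-test. In SCI14d + TM against CTR it was 1, and 0 with no intensity trend. At an unadjusted p under 0.05, the methods' t-test and the exact permutation test each gave 5 in SCI3d against CTR (in place of 3), 3 in SCI14d + TM against CTR, 1 (Ankrd2) in SCI14d + TM against SCI14d and 1 (Nrap) in SCI14d against SCI8d. With each array left out in turn the counts were 3 to 4 on day 3, 2 to 3 on day 8, 1 to 2 on day 14, 3 to 4 in SCI8d + TM and 0 to 1 in SCI14d + TM against CTR, and 0 to 0 elsewhere. With the replicate block they were 3, 3, 2, 3 and 1 and changed for no comparison. The cause of these changes was not tested. Of same-numbered pairs, 6 of 90 had r over 0.1, and 8 of 36 arrays were nearest to an array of their own number. Csrp3 in SCI3d against CTR was called in 5 of 49 settings, among them median centring (0.0454), array weights (0.0401) and the compared groups alone (0.0235 in limma). Fhl1 was called in SCI8d + TM against CTR with the mean of its probe sets (0.69, adjusted p = 0.0361 in limma).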
